A study of Rattus norvegicus with 8 samples.

Results

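Protein phosphatases remove phosphate groups from proteins, and 68 rat genes of this class were measured in the cerebral cortex of 8 rats. The genes were chosen by name: every array probe whose RefSeq accession maps to a rat symbol beginning with Ppp, Ppm1, Ptpn, Ptpr or Dusp, other than Ptprz1, Dusp1 and Ppp1r1b. Of 79 such genes with a probe, 68 had a probe well above the local background on all arrays of the injured or of the control group, out of 21677 genes that passed the same filter. The other 11 were Dusp13b, Ppm1f, Ppp1r14bl, Ppp1r14d, Ppp1r17, Ppp1r2l1, Ppp1r3b, Ppp3r2, Ptpn7, Ptprk and Ptprq, of which Ptpn7 came nearest, with 3 HI arrays and 2 control arrays well above background. Each of the 68 is represented by its brightest probe.

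All animals were Wistar rats whose cortex was taken at 8 weeks of age, with 1 animal per Agilent 1-colour array. In the 4 HI animals (hypoxia-ischemia, the Rice model) the left carotid artery was sectioned at 7 days of age, and the pups then breathed 8% oxygen for 1 h at 33 °C. No insult was given to the 4 control animals. Cortex was taken from the hemisphere opposite the insult in HI animals and from the corresponding side in control animals, and the comparison concerns mature cortex away from the injured side.

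Protein phosphatases fall into families with separate chemistry. The catalytic subunits of the PPP family (PP1, PP2A, calcineurin and their relatives) act on serine and threonine and take their targets from a large set of regulatory subunits and inhibitors, whereas the PPM family works as single magnesium-dependent chains. Protein tyrosine phosphatases oppose tyrosine kinases, either inside the cell or as receptors in the membrane, some of them at axons and synapses. The dual-specificity phosphatases include the enzymes that switch off MAP kinases. In cortex, PP1 and calcineurin are best known for their part in synaptic depression.

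Levels are log2 of the processed intensity relative to the 75th percentile of the same array, so 0 is that percentile, and they are read for a single probe across arrays, not between genes. The array of control 1 stood apart: its 75th percentile was 234.2 intensity units, against 436 to 510 on the other 7 arrays, and its correlation with them was 0.942 to 0.954, against at least 0.973 among the others. It was the highest or the lowest of the 8 arrays for 45 of the 68 phosphatase genes (66.2%; 76.9% of all genes tested), and the main results are therefore given with and without it. All 4 HI arrays were on one slide with one scan and all 4 control arrays on another, and a difference between slides or scans therefore cannot be told apart from one between the groups. Of the cell type markers, 7 of 8 neuronal genes were measured, with a summed level of 152 to 162 times the 75th percentile in HI and 147 to 206 times in control, whereas choroid plexus markers summed to 1.35 to 266 in HI (highest in HI 3 and HI 4) and 0.623 to 206 in control (highest in control 2), and meningeal fibroblast markers to 14.0 to 159 in HI (highest in HI 2) and 9.16 to 37.8 in control. Sums of 2 lists did not overlap between the groups: the 3 red blood cell markers measured summed to 4.78 to 11.7 in HI and 3.43 to 4.49 in control, and the 4 striatum markers measured to 2.41 to 3.27 in HI and 3.32 to 4.10 in control. Without control 1 the astrocyte sums (107 to 118 in HI and 98.8 to 103 in control) and the microglia and leukocyte sums (32.3 to 35.3 in HI and 29.2 to 31.5 in control) did not overlap either. The astrocyte markers did not move together: in log2 change without control 1, 4 were above 0 and 3 below, from 0.93 for Gjb6 to -1.09 for S100b. Of the microglia and leukocyte markers 6 were then above 0 and 2 below. The part of these cells in the phosphatase values was not tested.

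Most phosphatase transcripts had similar signals in HI and control cortex, and none passed the threshold with all arrays. With all 8 arrays, limma placed 0 of the 68 genes at an adjusted p under 0.05, where 0.918% of all 21677 genes passed, and 4 genes (5.88%) at an unadjusted p under 0.05, where 10.6% of all genes passed. Those 4 were Ppp1cb and Ppm1e, with higher signal in HI, and Ppp1r14a and Dusp11, with lower signal in HI (background 4.44% higher and 6.15% lower). Signals of the 2 groups did not overlap for 4 genes, namely Ppp1cb, Ppp1r14a, Dusp11 and Ppp2r2d, where 14.2% of all genes showed no overlap. The median log2 change over the 68 was 0.01, with 35 genes above 0 and 33 below, and it was -0.03 over all genes tested. The median size of the change was 0.15 for the phosphatases and 0.23 for all genes, and 5 phosphatase genes (7.35%) differed by over 1.5-fold, against 13.6% of all genes. They include Dusp2, which passed the filter through the HI arrays only, the group where its signal was higher. They also include Ppp5c, with a change of -0.01 without control 1.

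Without control 1, 1 phosphatase gene, Ppm1e, passed an adjusted p of 0.05 in limma, where 3.64% of all genes did, and 9 (13.2%) had an unadjusted p under 0.05, where 20.6% of all genes did. The groups then did not overlap for 8 genes (11.8%), against 21.7% of all genes. The median size of change became 0.09 for the phosphatases and 0.13 for all genes. The sign of the change turned for 25 of the 68 genes when this array was left out. Without both control 1 and HI 2, 3 genes passed the adjusted threshold in limma (Dusp11, Ppm1e and Ptprf), where 3.22% of all genes did. The 95% interval of the change lay inside 2-fold in both directions for 55 genes with all arrays and for 62 without control 1, as the plot of all intervals shows.

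**Figure D1:**
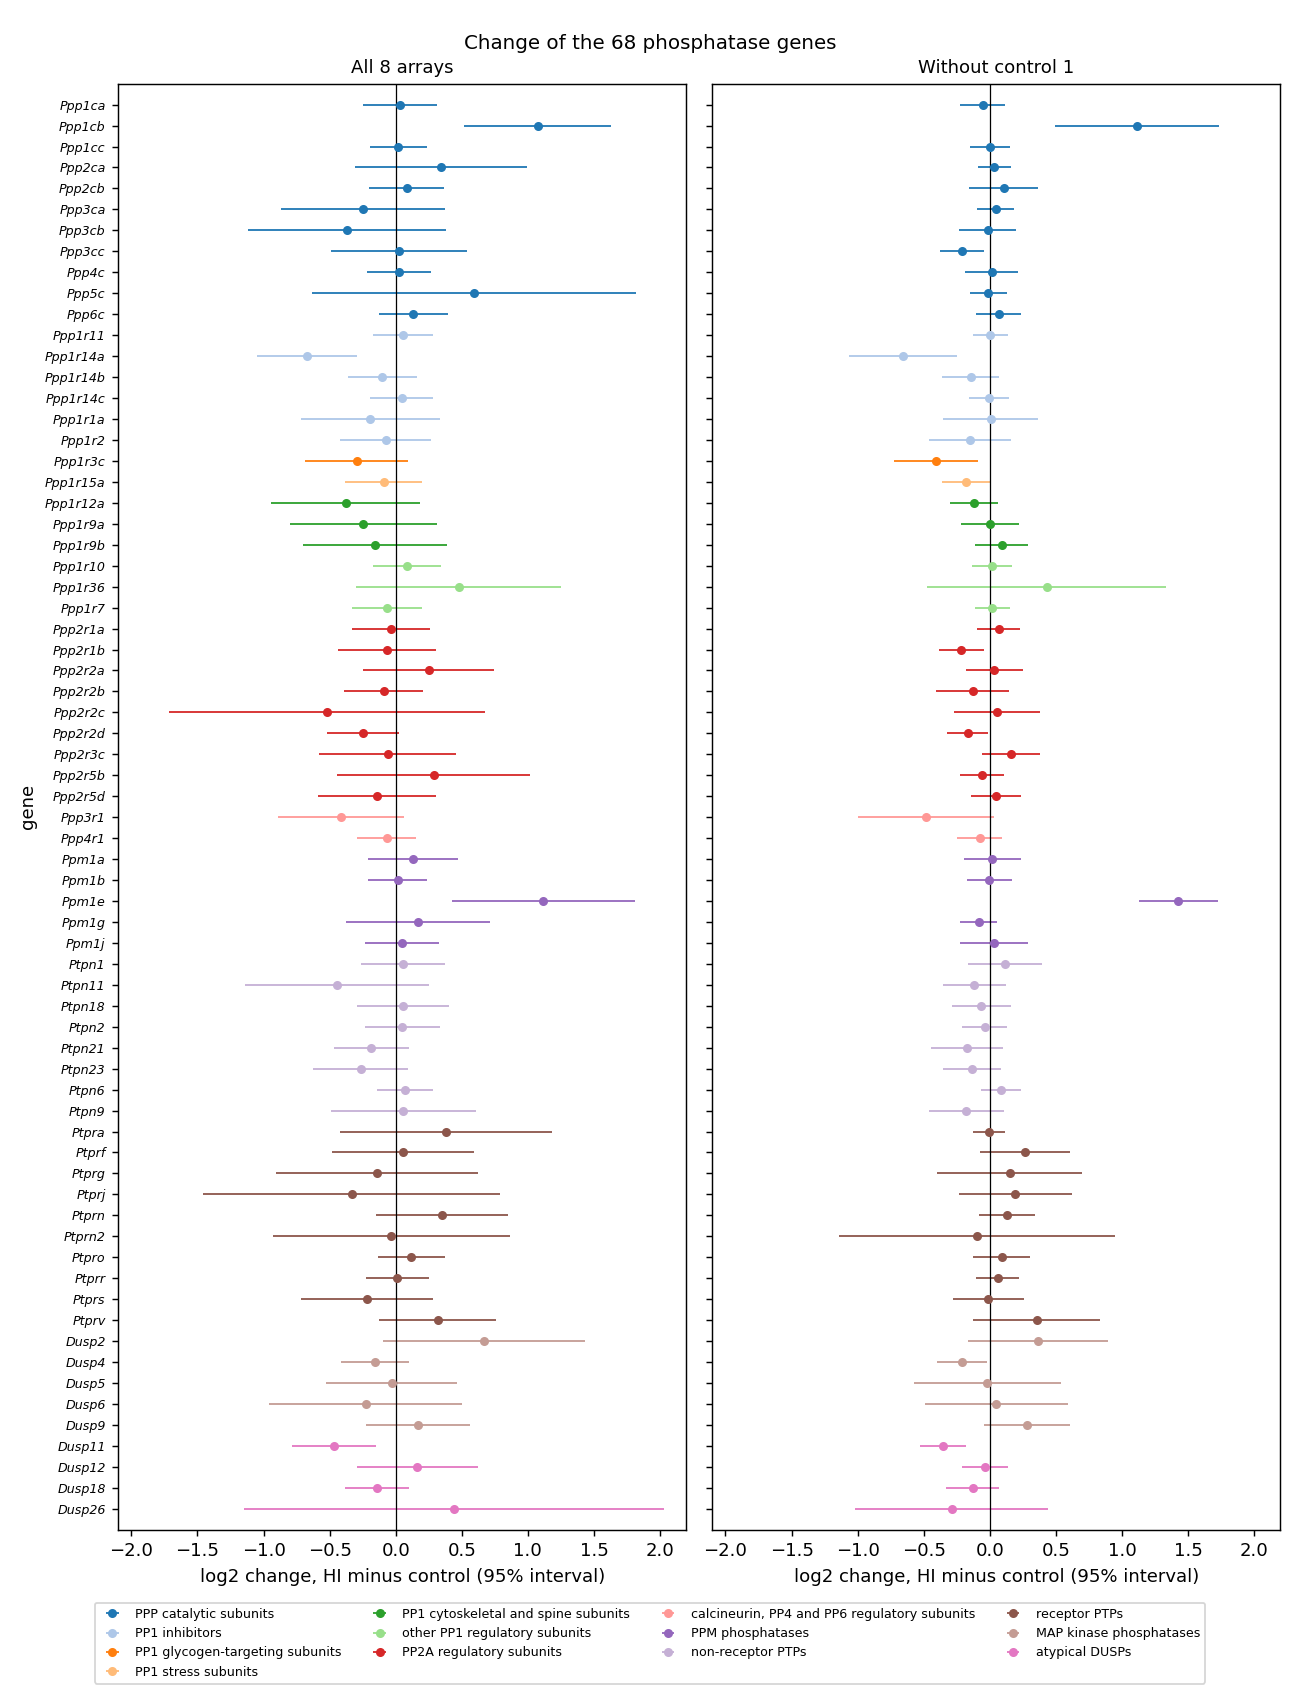
Log2 change, HI minus control, of each of the 68 phosphatase genes with its 95% interval from limma, with all 8 arrays (left) and without control 1 (right); colours mark the families. With all arrays 4 intervals leave out 0 and without control 1 9 do, and the intervals of Ppp5c, Ppp2r2c, Ptprj and Dusp26 narrow when control 1 is left out.

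Ppp1cb encodes the beta catalytic subunit of PP1, the isoform that works in myosin phosphatase, and its signal was the higher one in every HI animal. It measured 3.68, 3.61, 3.71 and 3.78 in HI 1 to 4, against 2.74, 1.88, 2.77 and 3.08 in control 1 to 4. The HI arrays lay close together, all above the highest control, and control 2 was the lowest of the 8. The log2 change was 1.07 (limma SE 0.24), a 2.10-fold difference, with a 95% interval of 0.52 to 1.63 and an adjusted p of 0.126. Without control 1 the limma change was 1.11 (adjusted p = 0.0726), and without control 2 it was 0.83 with an adjusted p of 0.048. Over all alternative settings the change ran over 0.83 to 1.23 and the limma adjusted p over 0.0238 (array weights) to 0.368. Summed choroid plexus markers were 266 and 237 in HI 3 and HI 4 and 206 in control 2, and their part in this difference was not tested. In bulk cortex a different number of cells of a type and a different amount of RNA per cell cannot be told apart, for this gene as for those that follow.

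Ppp1r14a encodes CPI-17, which inhibits myosin phosphatase once protein kinase C has phosphorylated it, and in mouse brain it is also found in oligodendrocytes. Its signal was 2.53, 2.04, 2.42 and 2.33 in HI 1 to 4, against 3.04, 2.91, 2.72 and 3.32 in control 1 to 4. Every HI array lay below every control array, and HI 2 was the lowest. The log2 change was -0.67 (limma SE 0.16; 95% interval -1.05 to -0.29; adjusted p = 0.161), or 1.59-fold lower in HI, and it was -0.66 without control 1 (adjusted p = 0.092). Over all alternative settings the limma adjusted p ran over 0.0498 (array weights) to 0.413.

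Myelin genes were measured on the same arrays. Opalin, a myelin membrane protein, measured 3.20, 2.30, 2.92 and 3.10 in HI, against 3.82, 3.74, 3.42 and 3.98 in control. Mog, a protein of the myelin surface, measured 4.22, 3.47, 4.11 and 3.99 in HI, against 4.98, 4.35, 4.28 and 4.65 in control. Both were lowest in HI 2, the array with the lowest Ppp1r14a, and had no overlap between HI and control (14.2% of all genes had none). Over all 7 oligodendrocyte markers the summed level was 230 to 360 in HI and 257 to 433 in control, or 332 to 433 in control 2 to 4. In log2 change, 3 markers (Mbp 0.31, Mobp 0.21 and Cnp 0.15) were above 0 and 4 below with all arrays. Without control 1, 6 were below 0, with Mbp at -0.40 and Cnp at -0.32, and Mobp was at 0.0095. The part of these cells in the Ppp1r14a difference was not tested.

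Ppm1e encodes POPX1, a brain-enriched phosphatase of the PPM family that dephosphorylates the kinase PAK and calmodulin-dependent kinases. It measured 1.68, 1.51, 1.93 and 1.91 in HI 1 to 4, against 1.57, 0.26, 0.50 and 0.24 in control 1 to 4. Control 2 to 4 lay well below every HI array, while control 1 fell within the HI range. With all arrays the log2 change was 1.12 (limma SE 0.30; 95% interval 0.43 to 1.81; adjusted p = 0.21). Without control 1 Ppm1e rose 2.69-fold in HI, a log2 change of 1.43 (limma SE 0.13; 95% interval 1.13 to 1.73; adjusted p = 0.00199), and without both control 1 and HI 2 the limma change was 1.51 (adjusted p = 0.00156). Over all alternative settings the limma adjusted p ran over 0.000283, with array weights that favour consistent arrays, to 0.523, and leaving out any single array other than control 1 gave 0.341 or more. Without control 1, 3 control animals remained.

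Dusp11 is an atypical member of its family that acts on the 5′ phosphates of RNA. It measured -0.10, 0.05, -0.03 and -0.21 in HI, against 0.73, 0.26, 0.33 and 0.26 in control. All HI arrays lay below all control arrays, and control 1 stood above the other controls. The log2 change was -0.47 (limma SE 0.14; 95% interval -0.78 to -0.15; adjusted p = 0.258), and without control 1 it was -0.35 (adjusted p = 0.0531). Without control 1 and HI 2 together the change was -0.39 and the limma adjusted p 0.0434, within a range of 0.0211 (array weights) to 0.568 over all settings. Each of these 4 genes had a single kept probe, so no second probe of the gene was available to compare.

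**Figure D2:**
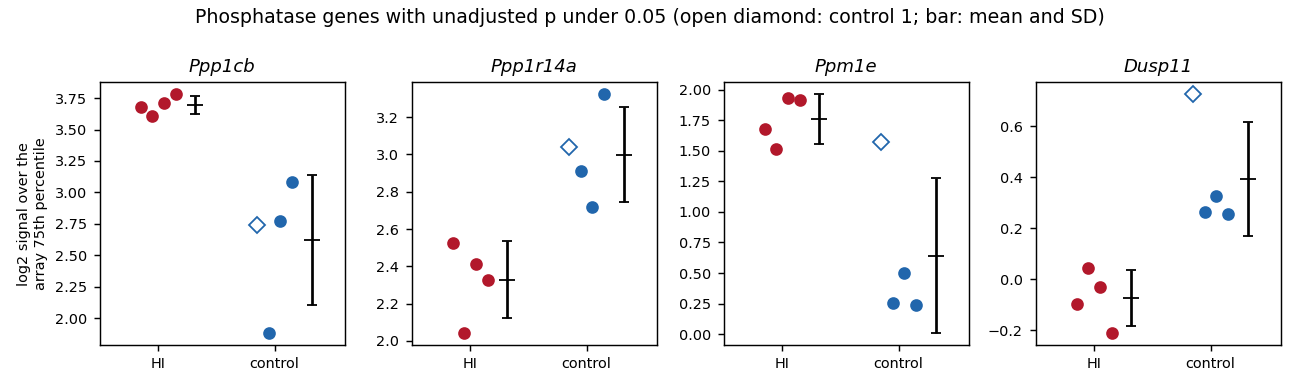
Log2 signal over the array's 75th percentile in each animal for the 4 genes with an unadjusted p under 0.05; points are animals, the open diamond is control 1, and bars give the mean and SD (n = 4 per group). HI lies above control throughout for Ppp1cb and below it throughout for Ppp1r14a and Dusp11, while for Ppm1e control 1 lies among the HI animals.

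The promoters of these 4 genes are printed because no other phosphatase gene had as small a p; they are RefSeq sequence of the GRCr8 assembly, the 250 bases before each transcript start, 5′ to 3′ on the gene's strand. They lie at chr6:29712836-29713085 (minus strand, Ppp1cb), chr1:93713852-93714101 (plus strand, Ppp1r14a), chr10:72684547-72684796 (minus strand, Ppm1e) and chr4:119942568-119942817 (minus strand, Dusp11). Capitals mark the GC box GGGCGG, the CCAAT box CCAAT, the cyclic AMP response element TGACGTCA and its shorter core TGACG, each on either strand, where the core also lies inside the longer element.
Ppp1cb: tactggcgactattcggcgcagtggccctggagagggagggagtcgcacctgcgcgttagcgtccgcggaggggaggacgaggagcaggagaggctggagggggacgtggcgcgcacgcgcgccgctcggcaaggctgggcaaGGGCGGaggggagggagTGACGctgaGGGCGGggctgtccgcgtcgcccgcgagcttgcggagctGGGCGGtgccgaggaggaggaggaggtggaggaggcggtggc
Ppp1r14a: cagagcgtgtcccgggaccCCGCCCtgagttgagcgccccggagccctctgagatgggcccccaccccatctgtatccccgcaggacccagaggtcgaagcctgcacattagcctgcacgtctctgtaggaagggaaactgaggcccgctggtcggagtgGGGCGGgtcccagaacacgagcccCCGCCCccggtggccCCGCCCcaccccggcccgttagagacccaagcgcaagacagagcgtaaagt
Ppm1e: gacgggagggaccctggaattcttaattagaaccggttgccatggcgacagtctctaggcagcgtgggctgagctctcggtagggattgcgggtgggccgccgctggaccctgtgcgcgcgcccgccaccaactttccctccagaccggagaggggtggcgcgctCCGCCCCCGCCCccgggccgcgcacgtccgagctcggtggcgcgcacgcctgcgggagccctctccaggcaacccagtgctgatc
Dusp11: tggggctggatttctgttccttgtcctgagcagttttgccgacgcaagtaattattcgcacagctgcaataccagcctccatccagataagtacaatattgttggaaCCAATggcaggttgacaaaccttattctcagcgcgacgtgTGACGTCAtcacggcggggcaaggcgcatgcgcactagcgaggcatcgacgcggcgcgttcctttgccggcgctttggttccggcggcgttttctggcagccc
The cyclic AMP response element is in the Dusp11 promoter, which also holds a CCAAT box and no GC box. The promoters of Ppp1cb, Ppp1r14a and Ppm1e hold 3, 4 and 2 GC boxes, and the Ppp1cb promoter holds the shorter core once. No TATA box (TATAAA) is in the 4 windows. A promoter was matched for 60 of the 68 genes. The full response element was in 5 of these 60 (8.33%), those of Dusp11, Ppp1r15a, Ppp2ca, Ppp2r2d and Ptprs, and in 1.59% of all 33469 promoters in the table. The shorter core was in 35% of the 60 and 18.2% of all, the GC box in 58.3% and 30.5%, the CCAAT box in 33.3% and 34.0%, and TATAAA in 3.33% and 12.9%. The 60 are genes kept on these arrays, with a single promoter each, whereas the 33469 are all promoters without either restriction. The shares therefore compare unlike sets, and a difference between them was not tested. These are matches of letters and not measured sites.

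The PPP catalytic subunits carry out most serine and threonine dephosphorylation in neurons. Of the 11 measured, Ppp1cb alone had an unadjusted p under 0.05 with all arrays, and the median log2 change was 0.03 (9 above 0, 2 below). The other PP1 isoforms were close to level: Ppp1ca was 5.63, 5.53, 5.58 and 5.51 in HI, against 5.28, 5.48, 5.68 and 5.68 in control, and Ppp1cc was 4.60, 4.52, 4.56 and 4.53 in HI, against 4.48, 4.45, 4.61 and 4.60 in control. Their log2 changes were 0.03 (95% interval -0.25 to 0.31) and 0.02 (-0.19 to 0.23).

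For PP2A, the catalytic subunit Ppp2ca was 4.06, 4.07, 4.00 and 4.03 in HI, against 2.76, 3.96, 4.04 and 4.01 in control. The 7 arrays other than control 1 were nearly equal, and the log2 change was 0.35 (95% interval -0.30 to 0.99) with that array and 0.04 (-0.09 to 0.16) without it. Its near twin Ppp2cb had a change of 0.08 with all arrays and 0.11 without control 1. Ppp4c, of PP4, and Ppp6c, of PP6, had changes of 0.02 (-0.22 to 0.26) and 0.13 (-0.13 to 0.39).

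Ppp5c, a phosphatase bound to the Hsp90 chaperone, showed the same dependence on 1 array. It was 1.29, 1.22, 1.21 and 1.21 in HI, against -1.18, 1.19, 1.21 and 1.32 in control, a log2 change of 0.60 with all arrays and -0.01 (95% interval -0.15 to 0.13) without control 1. Apart from control 1, its level varied hardly at all between animals or groups.

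Calcineurin, the calcium-activated phosphatase of synapses, has 3 catalytic genes. Ppp3ca was 5.21, 5.29, 5.32 and 5.25 in HI, against 6.39, 5.15, 5.28 and 5.24 in control, and Ppp3cb was 2.80, 2.77, 2.92 and 2.97 in HI, against 4.29, 2.77, 3.04 and 2.82 in control. Control 1 was the highest array for both, and their log2 changes were -0.25 and -0.37 with it and 0.04 (95% interval -0.10 to 0.19) and -0.02 (-0.23 to 0.20) without it. Ppp3cc, the form first known from testis, was -0.68, -0.80, -0.83 and -0.78 in HI, against -1.49, -0.68, -0.50 and -0.51 in control, with control 1 lowest. Its change was 0.02 with all arrays and -0.21 without control 1 (unadjusted p = 0.0218; limma adjusted p = 0.163).

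**Figure D3:**
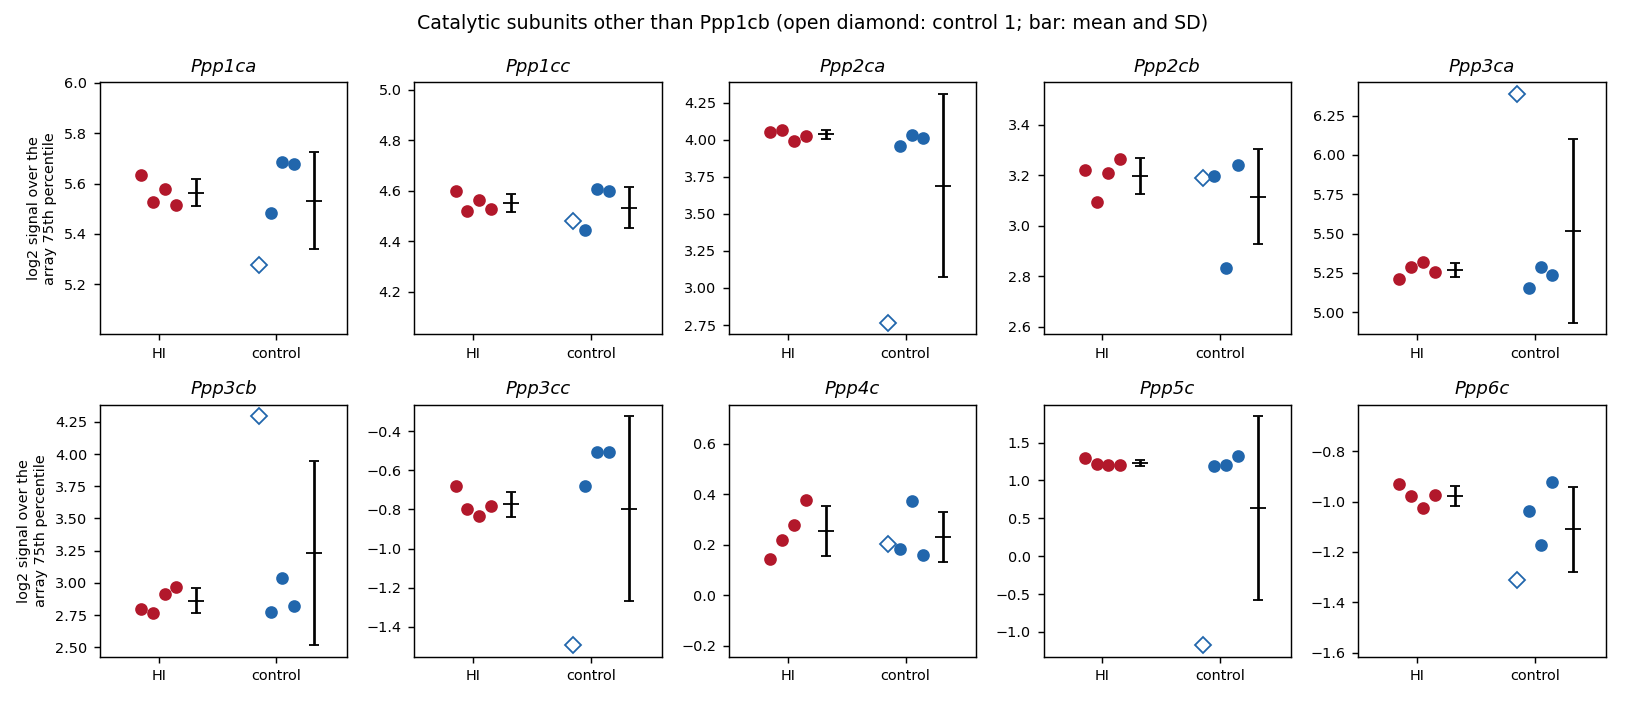
Log2 signal over the array's 75th percentile in each animal for the PPP catalytic subunit genes other than Ppp1cb, HI left of control, with control 1 as an open diamond and the mean and SD as bars (n = 4 per group). Control 1 lies away from the other arrays for Ppp2ca, Ppp3ca, Ppp3cb, Ppp3cc and Ppp5c.

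The calcineurin regulatory subunit Ppp3r1, which binds calcium, was 5.50, 5.88, 5.43 and 4.87 in HI, against 5.63, 5.86, 5.99 and 5.86 in control. HI 1, HI 3 and HI 4 lay below every control, and HI 2 within the control range. The log2 change was -0.42 (95% interval -0.89 to 0.06), and it was -0.23 when HI 4, the lowest array, was left out. A second probe of this gene gave -0.33 with all arrays and 0.05 without control 1. The other gene of this list, Ppp4r1, a regulator of PP4, had a change of -0.07.

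PP1 inhibitors were represented by 6 genes, of which Ppp1r14a had an unadjusted p under 0.05, with a median change of -0.09 (2 above 0, 4 below). Its relatives gave smaller values, and the difference from them was not tested: Ppp1r14b had a change of -0.10 (95% interval -0.36 to 0.16) and Ppp1r14c one of 0.04 (-0.19 to 0.28). Ppp1r1a, inhibitor 1, which blocks PP1 after phosphorylation by protein kinase A, was 6.57, 7.16, 6.82 and 6.61 in HI, against 7.58, 6.71, 6.90 and 6.74 in control. Its change was -0.19 with all arrays and 0.01 without control 1. Ppp1r2 (inhibitor 2) and Ppp1r11 (inhibitor 3) had changes of -0.07 and 0.06.

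The subunits that bring PP1 to its targets gave intervals that all held 0 with all arrays. Ppp1r12a, the myosin-binding partner of Ppp1cb, was 2.66, 2.57, 2.66 and 2.60 in HI, against 3.78, 2.87, 2.76 and 2.61 in control. Its log2 change was -0.38 (95% interval -0.94 to 0.18) with all arrays and -0.12 (-0.30 to 0.06) without control 1, the highest array. The dendritic spine scaffolds Ppp1r9a (neurabin) and Ppp1r9b (spinophilin) had changes of -0.24 and -0.16 with all arrays and of 0.00 and 0.09 without it.

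Ppp1r3c, which targets PP1 to glycogen, was -1.98, -2.08, -1.86 and -1.92 in HI, against -2.01, -1.36, -1.42 and -1.87 in control. Control 2 and 3 lay above all other arrays, and control 1 among the HI arrays. The change was -0.29 (95% interval -0.69 to 0.10) with all arrays, and -0.41 (-0.73 to -0.09; unadjusted p = 0.0187; limma adjusted p = 0.151) without control 1. A second, dimmer probe of Ppp1r3c gave -0.16 with all arrays and 0.09, of the opposite sign, without control 1. Ppp1r15a (GADD34), which directs PP1 to the translation factor eIF2 alpha under stress, had a change of -0.09, and of -0.18 without control 1. Among the others, Ppp1r7 and Ppp1r10, both nuclear partners of PP1, had changes of -0.07 and 0.09, and Ppp1r36 one of 0.48 (-0.30 to 1.25), with levels that ranged over -1.40 to -0.55 in HI and -2.07 to -0.61 in control.

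PP2A holds a scaffold subunit and one of several targeting subunits, and none of the 9 measured genes had an unadjusted p under 0.05 with all arrays (median -0.07; 2 above 0, 7 below). Ppp2r2d, a B55 targeting subunit active in cell division, was 2.95, 2.83, 2.80 and 2.91 in HI, against 3.38, 3.01, 2.98 and 3.12 in control. Each HI array lay below each control array, although the step was small, a log2 change of -0.25 (95% interval -0.52 to 0.02) that became -0.17 (-0.32 to -0.01; unadjusted p = 0.0404; limma adjusted p = 0.219) without control 1. Ppp2r2c, another B55 subunit, was -1.44, -1.33, -1.51 and -1.62 in HI, against 0.77, -1.74, -1.21 and -1.64 in control, so its change of -0.52 lay in control 1 and was 0.06 without that array. The scaffold Ppp2r1a had a change of -0.03, and the second scaffold Ppp2r1b one of -0.07, or of -0.21 (-0.39 to -0.04; unadjusted p = 0.022; limma adjusted p = 0.164) without control 1.

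In the PPM family 5 genes were measured, all with a change above 0 with all arrays, and Ppm1e was the one with an unadjusted p under 0.05. Ppm1a and Ppm1b, widely expressed members, had changes of 0.13 (95% interval -0.21 to 0.47) and 0.01 (-0.21 to 0.24). Ppm1g, a nuclear member, was 1.11, 1.11, 0.99 and 1.09 in HI, against 0.15, 1.12, 1.15 and 1.21 in control. It lay slightly below control 2 to 4 on every HI array and above control 1, with a change of 0.17 with all arrays and -0.08 without control 1. Ppm1j had a change of 0.05. Without control 1 the family had 3 genes above 0 and 2 below.

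None of the 8 non-receptor tyrosine phosphatases had an unadjusted p under 0.05 with or without control 1. Their changes ranged over -0.44 to 0.07 with all arrays and -0.18 to 0.12 without control 1. The lower end with all arrays was Ptpn11 (Shp2, which passes growth factor signals to Ras), at 3.05, 2.99, 3.26 and 2.89 in HI, against 4.46, 3.20, 3.23 and 3.07 in control. Control 1 was its highest array, and the change was -0.12 (95% interval -0.35 to 0.12) without it. Ptpn23, which works in endosomal sorting, and Ptpn21 had changes of -0.26 and -0.18. Ptpn6 (Shp1), typical of blood cells and microglia, had a change of 0.07 (-0.14 to 0.28).

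Receptor tyrosine phosphatases are membrane proteins, some of them at axons and synapses. None of the 10 had an unadjusted p under 0.05 with or without control 1, and their median change was 0.03 with all arrays and 0.11 without control 1. Ptprf (LAR), an organiser of presynaptic terminals, was 5.66, 5.12, 5.57 and 5.68 in HI, against 6.09, 5.27, 5.27 and 5.18 in control. HI 1, HI 3 and HI 4 lay above control 2 to 4, and HI 2 lay below them. Its change was 0.06 (95% interval -0.48 to 0.59) with all arrays, 0.27 (-0.07 to 0.61) without control 1, and 0.40 without control 1 and HI 2 (limma adjusted p = 0.031).

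HI 2 was also the array with the highest meningeal marker sum, 159 against 14.0 to 46.2 in the other HI animals and 9.16 to 37.8 in control, and the part of that tissue in these values was not tested. Ptprs, a receptor for chondroitin sulfate proteoglycans, had a change of -0.22 with all arrays and -0.01 (-0.28 to 0.26) without control 1. Ptprn, a catalytically inactive protein of secretory granules, was 3.64, 3.52, 3.50 and 3.52 in HI, against 2.54, 3.32, 3.60 and 3.32 in control, with a change of 0.35 (-0.15 to 0.85), and of 0.13 without control 1. With the probe used, its relative Ptprn2 varied within both groups, over -1.05 to 0.60 in HI and -0.96 to 0.01 in control. Its change of -0.03 therefore had an interval of -0.93 to 0.86. The other probe of Ptprn2 varied less in HI, with an SD of 0.15, against 0.62 in control. Its change was -0.47 with all arrays and -0.16 without control 1. Ptprv measured -1.64, -0.85, -1.48 and -1.53 in HI, against -1.57, -1.95, -1.62 and -1.62 in control, a change of 0.32 that became 0.14 without HI 2.

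The MAP kinase phosphatases are produced in response to the kinases that they inactivate. All 5 had intervals that held 0 with all arrays. Dusp6, which acts on ERK in the cytoplasm, was 4.31, 3.49, 4.49 and 4.10 in HI, against 5.15, 4.00, 4.16 and 3.99 in control, and Dusp5, which acts on ERK in the nucleus, was 2.47, 1.46, 2.31 and 2.01 in HI, against 2.13, 2.13, 2.16 and 1.95 in control. HI 2 was the lowest array for both genes. The SD of Dusp6 was 0.44 in HI, against 0.56 in control, or 0.095 in control 2 to 4. The SD of Dusp5 was 0.45 in HI, against 0.095 in control. The changes were -0.23 (95% interval -0.96 to 0.50) for Dusp6 and -0.03 (-0.53 to 0.47) for Dusp5.

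Dusp2, an inducible nuclear member, was -3.62, -3.09, -3.58 and -3.73 in HI, against -5.07, -4.26, -3.46 and -3.89 in control, where control 1 was not well above background. The change was 0.67 (95% interval -0.10 to 1.43), or 0.37 without control 1. With all arrays Dusp2 passed the filter through the HI arrays only, the group where its signal was higher. Dusp4, another nuclear member, was -4.12, -4.18, -4.30 and -4.38 in HI, against -4.26, -4.09, -4.06 and -3.96 in control, with control 1 again not well above background. Its change was -0.16, and -0.21 (-0.40 to -0.02; unadjusted p = 0.0341; limma adjusted p = 0.202) without control 1, when the groups did not overlap (21.7% of all genes then had no overlap). With all arrays Dusp4 also passed the filter through the HI arrays only. Its levels were near the lowest signals well above background, which were -5.33 to -4.08 by array. The change was -0.033 under quantile scaling and -0.030 under normexp background correction with quantile scaling, both with all arrays. Dusp9 had a change of 0.17.

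**Figure D4:**
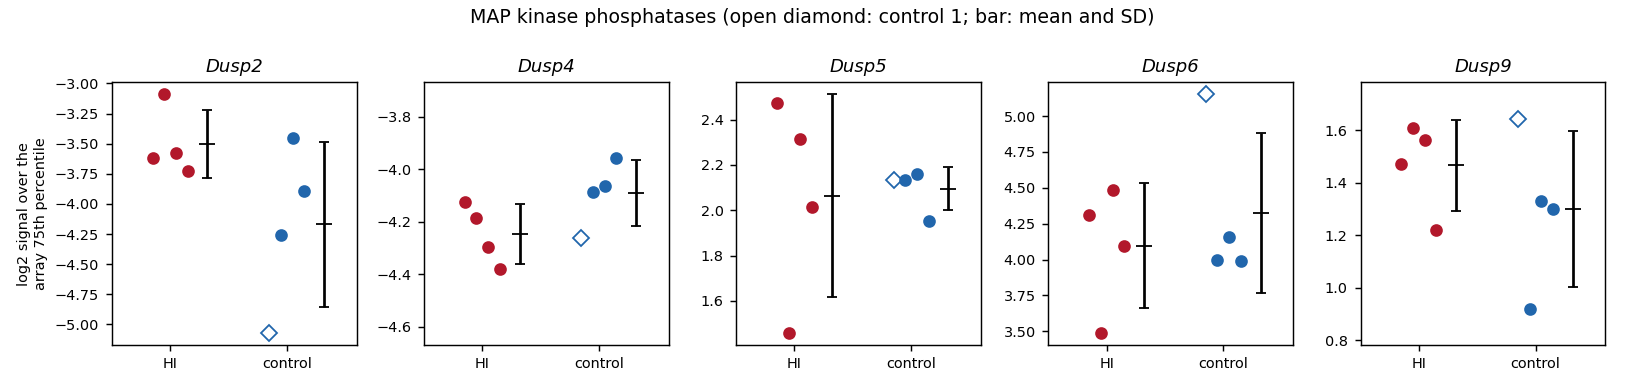
Log2 signal over the array's 75th percentile in each animal for the 5 MAP kinase phosphatase genes, HI left of control, with control 1 as an open diamond and the mean and SD as bars (n = 4 per group). The groups overlap for all 5 genes, and HI 2 is the lowest point for Dusp5 and Dusp6.

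Among the 4 atypical dual-specificity genes, Dusp26 gave the widest interval of the 68. It was -0.62, -1.87, -1.27 and -0.69 in HI, against -3.74, -0.75, -1.04 and -0.69 in control, with control 1 not well above background. With all arrays it passed the filter through the HI arrays only. Its change was 0.44 (95% interval -1.15 to 2.03), and -0.29 (-1.02 to 0.44) without control 1. Dusp12 and Dusp18 had changes of 0.16 and -0.14.

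Measured from the mean of the 7 arrays other than control 1, control 1 departed by over 1 log2 unit for 14 of the 68 genes (20.6%), against 30.8% of all genes, and each other array for at most 1 of the 68. It was the highest array for 22 genes and the lowest for 23, where it was so for 45.3% and 31.6% of all genes. The largest departures were -2.76 for Dusp26, -2.41 for Ppp5c, 2.27 for Ppp2r2c and 2.00 for Ptprj. For 27 genes more than 1 probe was kept, 55 in all. The probes of a gene had the same sign of change in 20 of the 27, and placed control 1 on the same side of the other arrays in 17. For Ppp2r5d, a B56 subunit of PP2A, control 1 was 0.73 above the other arrays with the probe used and -1.58 from them with the other probe, and for Ppp4r1 the values were -0.0014 and -3.14. The other probe of Dusp18 had a change of -0.28 (unadjusted p = 0.02) and that of Ptpn1, which opposes insulin signalling, one of 0.34 (unadjusted p = 0.0425), against -0.14 and 0.05 with the probes used.

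**Figure D5:**
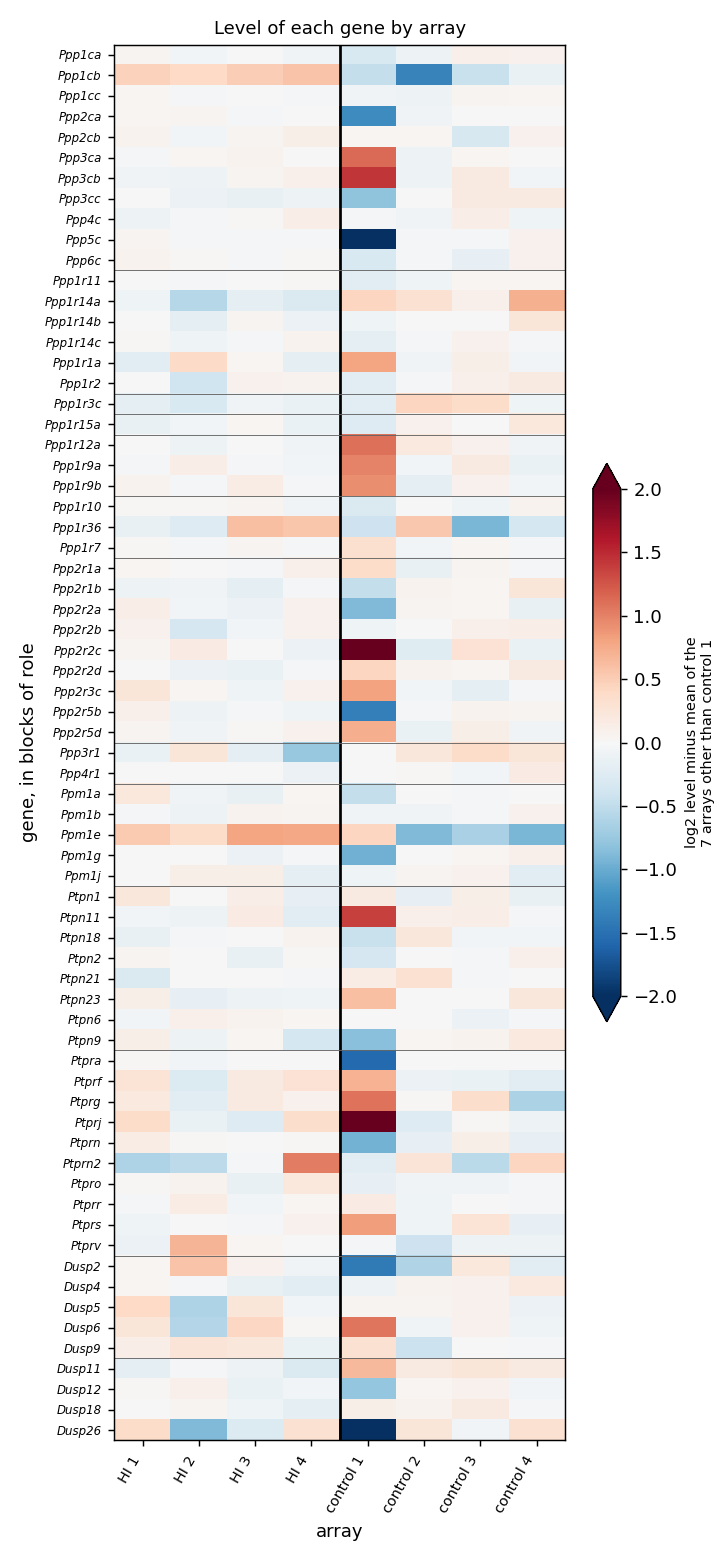
Heat map of the 68 phosphatase genes (rows, in blocks of role) on the 8 arrays (columns, HI arrays left of control arrays), coloured by the log2 level minus the mean of the 7 arrays other than control 1; the colour scale stops at 2 log2 units in either direction. The control 1 column carries most of the strong colours of both signs, with departures from -2.76 to 2.27.

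Genes around these enzymes were read from 4 further lists. Of 12 other phosphatases measured (36 listed), 0 passed an adjusted p of 0.05 in limma and 1 had an unadjusted p under 0.05 (10.6% of all genes did): Pdp1, which activates pyruvate dehydrogenase, was 1.13, 1.44, 0.96 and 1.08 in HI, against 0.28, 0.71, 0.68 and 0.78 in control. HI lay above control on every array (14.2% of all genes had no overlap in either direction), with a log2 change of 0.54 (limma SE 0.15; adjusted p = 0.243), or 0.43 without control 1, when it was again the 1 gene of its list with an unadjusted p under 0.05 (20.6% of all genes then). Of 17 regulators of phosphatases outside the chosen names (26 listed), 0 had an unadjusted p under 0.05 in limma with all arrays and 2 did without control 1. These were Strn, a PP2A scaffold (-0.55 with all arrays; -0.27 and limma adjusted p = 0.172 without control 1), and Igbp1, which binds PP2A-type catalytic subunits (0.57; 0.16 and limma adjusted p = 0.177 without control 1). The calcineurin inhibitor Rcan1, itself a target of the calcineurin pathway, had a change of -0.08 both with and without control 1.

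Of 6 measured genes that respond to or limit ERK signalling (17 listed), 0 passed the adjusted threshold in limma (0.918% of all genes did). An unadjusted p under 0.05 was found for 2, in opposite directions (10.6% of all genes). Egr1, an activity-induced transcription factor, was 2.31, 1.92, 2.42 and 2.25 in HI, against 3.15, 2.54, 2.72 and 2.79 in control, a change of -0.58 (limma adjusted p = 0.248). Errfi1, an inhibitor of the EGF receptor, was 3.69, 4.38, 3.91 and 3.49 in HI, against 3.18, 3.22, 3.36 and 3.43 in control, a change of 0.57 (limma adjusted p = 0.333). Neither gene overlapped between HI and control (14.2% of all genes had no overlap in either direction). Without control 1 there were 3 genes with an unadjusted p under 0.05 (20.6% of all genes then), with Egr1 at -0.46 and Errfi1 at 0.53. The third was Fos, an immediate early transcription factor, at -0.74 (limma adjusted p = 0.0815), against -0.51 with all arrays. Of 14 partners of receptor phosphatases (26 listed), 0 passed in limma and 1 had an unadjusted p under 0.05 (10.6% of all genes did). The contactin Cntn2 was 0.89, 0.68, 0.86 and 0.74 in HI, against 1.70, 1.20, 1.16 and 1.69 in control. Its groups did not overlap (14.2% of all genes), and the change was -0.64 (limma SE 0.16, adjusted p = 0.165). Without control 1 the change was -0.56, and Cntn2 was again the 1 such gene of its list (20.6% of all genes then).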

How the data were processed

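Total RNA of the cortex of each rat was labelled with Cy3, per the labels. Spot intensity values (processed, background-subtracted signal, with median spot and local background signals) came from the scanner files made with Agilent Feature Extraction 9.5.3.1, per the file headers. The deposited series table holds log2 values and served as an alternative; its columns correlated at 0.999 or more with the scanner values on the 75th percentile scale, centred per probe.

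Control spots were left out, flagged outlier spots were set to missing, and levels were log2 intensity minus the 75th percentile of the array. Probes well above background on all arrays of a group were kept. Names came from RefSeq (GRCr8) accessions, matched for 10735 of 41012 probes (26.2%). The brightest kept probe stood for a gene. limma 3.58.1 (R 4.3.3; lmFit, eBayes, Benjamini-Hochberg over all genes) gave the changes. The fit was tested on simulated data. The 95% intervals of the 68 genes ran, at the median, to either side of the change by 0.42 log2 units with all arrays and 0.21 without control 1. The labels give 1 animal per array.

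The members and lists were chosen with earlier results of these data known. Genes named with values were those with an unadjusted p under 0.05, the 2 smallest p and the brightest in each role list, and all catalytic subunits; others were chosen after their values were seen. Same-numbered animals were not treated as pairs (correlations of -0.16 to 0.03). Alternatives were other background corrections, scalings, filters, probe rules, moderation, array weights, a replicate block and arrays left out.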

Additional observations from a re-analysis of the deposited data

Results flagged for a closer look

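For 24 combinations of a gene and an animal, out of 136 groups of 4 animals examined, 1 animal lay far from the other 3 of its group; chance flags about 1 in 20 groups. The animal was control 1 in 16 of them. Control 1 was above the other controls for Dusp11 (0.73), Dusp6 (5.15), Ppp2r3c (-1.68), Ppp3ca (6.39), Ptpn11 (4.46), Ptprf (6.09) and Ptprj (3.89). It was below them for Dusp12 (-3.30), Dusp26 (-3.74), Ppm1a (-2.51), Ppm1g (0.15), Ppp2ca (2.76), Ppp2r5b (0.19), Ppp5c (-1.18), Ptpn9 (-2.45) and Ptpra (0.63). These levels are log2 relative to the 75th percentile of the array.

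Of the HI animals, HI 1 stood away from its group for Ppp5c (1.29), Ptpn21 (-0.55) and Ptprn (3.64), HI 2 for Ppp1r9a (1.68) and HI 4 for Ppp4r1 (0.22). Of the other controls, control 2 stood away for Ptprv (-1.95), control 3 for Ppp2cb (2.83) and control 4 for Dusp5 (1.95).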

How the results depend on the processing

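Of the alternatives run, only array weights and leaving out arrays moved a count of phosphatase genes past a threshold by over 1.5 times. With array weights 4 genes passed an adjusted p of 0.05 in limma (6.12% of all genes did), without control 1 and HI 2 together 3 did (3.22%), and leaving out 1 array at a time gave 0 to 1, the 1 being Ppm1e without control 1 and Ppp1cb without control 2. The unadjusted counts were 11 with array weights, 10 without both arrays and 4 to 9 with 1 array left out, with 9 without control 1. The median log2 change was 0.090 under median scaling, 0.051 under quantile scaling and -0.028 under normexp with 75th percentile scaling, and -0.0080 to 0.034 with 1 array left out. With the replicate block 0 genes passed the adjusted threshold (0.318% of all genes did) and 4 the unadjusted one. Same-numbered animals correlated at -0.16 to 0.03 and differently numbered ones at -0.14 to 0.15. These values show no sign of pairing by number but cannot exclude it.

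Ppp1cb, Ppp1r14a, Ppm1e and Dusp11 kept their direction under every alternative. Of the other changes given, some turned sign, among them Dusp2 (0.67) and Ppp5c (0.60), which differed by over 1.5-fold with all arrays. With array weights the log2 changes were 0.18 for Dusp6, -0.038 for Ppp1ca, 0.026 for Ppp1r7, 0.10 for Ppp1r9b, 0.069 for Ppp2r1a, 0.032 for Ppp3ca and -0.20 for Ppp3cc. Without both arrays the log2 changes were 0.25 for Dusp6, -0.041 for Ppp1ca, 0.032 for Ppp1r7, 0.11 for Ppp1r9b, 0.077 for Ppp2r1a, 0.037 for Ppp3ca, 0.015 for Ppp3cb, -0.20 for Ppp3cc and -0.0047 for Ppp5c. With the mean of a gene's probes the log2 changes were 0.12 for Ppp1r7, 0.12 for Ppp2r1a and 0.33 for Ppp4r1. Under median scaling the log2 changes were 0.012 for Ppp1r7, 0.044 for Ppp2r1a and 0.011 for Ppp4r1. Under quantile scaling the log2 change was 0.077 for Ppp2r1a. Under normexp with 75th percentile scaling the log2 changes were -0.067 for Dusp2, -0.031 for Ppm1a, -0.066 for Ppp3cc and 0.016 for Ppp4r1. Under normexp with quantile scaling the log2 changes were 0.015 for Ppp2r1a and -0.012 for Ppp3cc. With 1 array left out, changes that turned sign ran over -0.36 to 0.048 for Dusp6, -0.011 to 0.050 for Ppm1b, -0.053 to 0.083 for Ppp1ca, -0.0094 to 0.045 for Ppp1cc, -0.32 to 0.0063 for Ppp1r1a, -0.11 to 0.019 for Ppp1r7, -0.37 to 0.0034 for Ppp1r9a, -0.28 to 0.090 for Ppp1r9b, -0.012 to 0.12 for Ppp2cb, -0.10 to 0.067 for Ppp2r1a, -0.37 to 0.043 for Ppp3ca, -0.21 to 0.12 for Ppp3cc, -0.017 to 0.073 for Ppp4c, -0.0099 to 0.82 for Ppp5c and -0.035 to 0.27 for Ptprf. The cause was not tested. With all arrays 13 of the 68 intervals reached beyond 2-fold and the median distance from the change to its interval limit was 0.42 log2 units, and without control 1 these were 6 and 0.21.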
